A study of Homo sapiens with 8 samples.

Results

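Carbonic anhydrases are zinc enzymes that interconvert carbon dioxide and bicarbonate with the release or uptake of a proton. The isozymes differ mainly in where they work, some in the cytosol, some in mitochondria and some at the cell surface with the active site facing outward, and a few family members have lost the zinc-binding residues and with them the activity. In tumors the family is known for its part in pH control, above all through the surface isozymes that hypoxia induces. The 7 family members considered were CA2, CA5B, CA8, CA9, CA11, CA12 and CA13, chosen by gene symbol from the probe table of the array, with the brightest probe set taken per gene. Of these, 6 were found among 17687 named genes, each with 1 probe set, so that brightness decided nothing, and CA9, the hypoxia-induced surface isozyme, was not analysed here. The list was drawn up with earlier results of these arrays known, CA2 having already been seen to be higher after both treatments.

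H1299 is an established human non-small cell lung carcinoma line. RNA was taken from cells treated for 120 h with gallic acid (GA), a phenolic acid of tea, from untreated controls for GA, from cells treated for 120 h with 5-azacytidine (5azaC), a cytidine analog that blocks DNA methyltransferases, and from untreated controls for 5azaC, with 2 biological replicates in each group. The study compared the treatments to look for genes that GA might switch on as a DNA methylation inhibitor does. The dose of either compound is 10 μM in the study's methods and 10 mM in the sample labels, and the controls were same-passage cells left untreated, with no vehicle named.

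Each array gave 1 log2 signal per probe set for 21448 probe sets. Their median was 5.60 to 5.63 in the GA experiment and 5.85 to 5.87 in the 5azaC experiment. A background level was set on each array at the 95th percentile of its 612 negative-control probe sets, which was 6.31 to 7.23, and from 39.9% to 46.1% of probe sets exceeded it. Of 7 epithelial and carcinoma line markers, the simple keratins KRT8 and KRT18, vimentin (VIM) and N-cadherin (CDH2) were above background on all 8 arrays, and KRT19, EPCAM and E-cadherin (CDH1) were on none. The 6 lung epithelial markers, among them NKX2-1 and SFTPC, the 4 measured blood and erythroid markers and the 4 fibroblast and endothelial markers were also below background on all arrays. KRT8 and KRT18 rose after 5azaC, by 1.93 (adjusted p = 0.0203 from limma) and 1.34 (adjusted p = 0.042) on the log2 scale, and their part in the results below was not tested. Differences between groups were tested with limma over all 21448 probe sets, with each treated array set against the control array of the same replicate number. The labels give no more than the number to tie such arrays together.

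Among the 6 members, CA2, CA5B and CA13 were above background on all 8 arrays, and CA8, CA11 and CA12 were on none. CA2 and CA13 are cytosolic isozymes and CA5B is a mitochondrial one. CA12 is the other surface isozyme, and CA8 and CA11 belong to the carbonic anhydrase-related proteins, which lack activity. In these cells the measured signal of the family was therefore of cytosolic and mitochondrial isozymes, with CA9 not analysed. With the 99th percentile of the negative controls as background, between 8.90 and 10.48, none of the members was above it on all arrays, although CA2 was on 3 arrays and CA5B and CA13 were on 4 each.

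**Figure D1:**
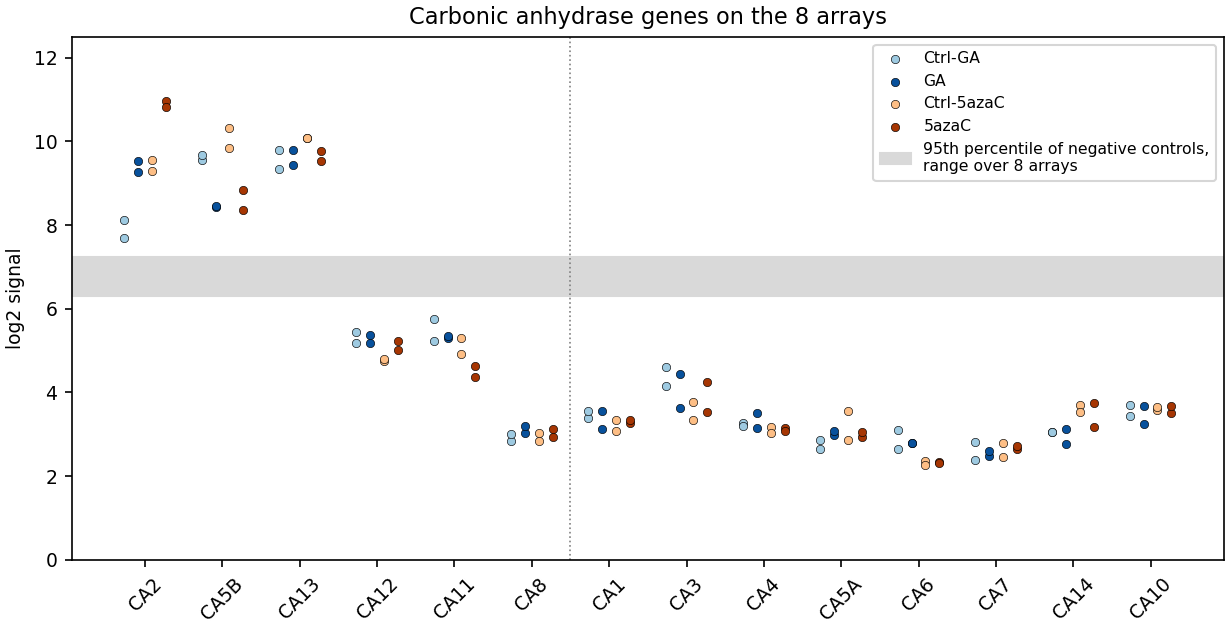
Log2 signal of 14 carbonic anhydrase genes on each of the 8 arrays, 2 points per group, with the members left of the dotted line and the other measured family genes right of it. The grey band is the range of the background level over the arrays, 6.31 to 7.23. CA2, CA5B and CA13 lie above it and the other 11 genes below it.

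CA2, the fast cytosolic isozyme of many tissues, was higher after GA and after 5azaC. Its log2 signal was 9.27 and 9.54 on the GA arrays and 7.70 and 8.12 on their controls. It was 10.97 and 10.83 on the 5azaC arrays and 9.30 and 9.55 on their controls. In each experiment both treated arrays lay above both control arrays, as they did for 25.3% of all probe sets after GA and for 28.1% after 5azaC.

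The mean of CA2 was 9.40 ± 0.19 (SD, n = 2) after GA against 7.91 ± 0.297, and 10.90 ± 0.0975 after 5azaC against 9.43 ± 0.176. After GA the rise of CA2 was 1.49 on the log2 scale, or 2.82-fold (standard error 0.22, 95% interval 0.99 to 1.99, adjusted p = 0.0488 from limma). It rose by 1.48 after 5azaC, or 2.78-fold (standard error 0.22, 95% interval 0.97 to 1.98, adjusted p = 0.032). Between arrays of the same number the difference was 1.57 and 1.42 for GA and 1.67 and 1.28 for 5azaC, so that each of the 4 treated arrays was above the control of the same number. The effects of the treatments on CA2 differed by 0.02 (95% interval -0.69 to 0.73, adjusted p = 0.996), an interval that leaves room for a difference of more than 1.5-fold either way. CA2 is on the list of shared higher genes that the study drew from these arrays, so its direction is not independent evidence.

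With each array centred on its median, the adjusted p of CA2 after GA was 0.051. On the 4 arrays of 1 experiment alone, the adjusted p of CA2 from limma was 0.00594 after GA and 0.0905 after 5azaC, so fewer arrays moved it both ways. With 1 GA pair left out, its log2 fold change after GA was 1.42 and 1.57. With 1 5azaC pair left out, that after 5azaC was 1.28 and 1.67.

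At an adjusted p under 0.05, 1 of the 6 members was called after GA (CA2), where 0.322% of all probe sets were called, and 2 were called after 5azaC (CA2 and CA5B), where 1.51% of all probe sets were. CA2 was known to be called when the members were listed, so these shares are a description.

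**Figure D2:**
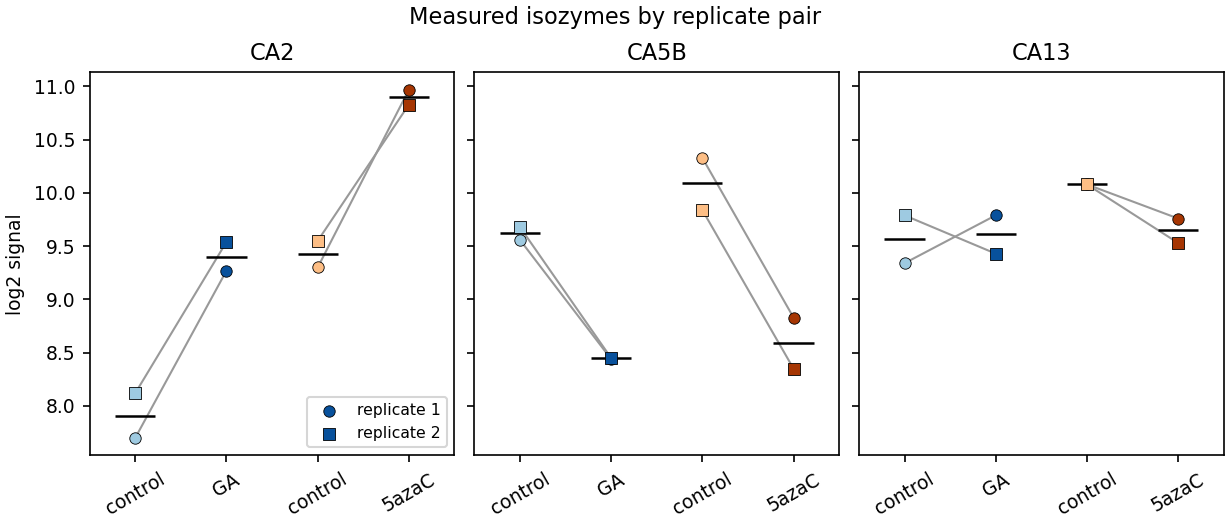
Log2 signal of CA2, CA5B and CA13 on each array, with grey lines joining the treated and control array of the same replicate number and black bars at the group means. CA2 goes up and CA5B goes down in all 4 pairs, whereas the pairs of CA13 go apart after GA.

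CA5B, one of the 2 mitochondrial isozymes, is thought to supply bicarbonate to enzymes of the mitochondrial matrix, and it was lower after 5azaC. Its log2 signal was 8.83 and 8.35 on the 5azaC arrays and 10.33 and 9.84 on their controls. On the GA arrays it was 8.44 and 8.45 and on their controls 9.56 and 9.68. Both treated arrays lay below both control arrays in each experiment, as was so for 21.4% of all probe sets after GA and 22.2% after 5azaC.

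The mean of CA5B was 8.59 ± 0.342 (SD, n = 2) after 5azaC against 10.09 ± 0.35, and 8.45 ± 0.00526 after GA against 9.62 ± 0.0873. CA5B fell by 1.49 on the log2 scale after 5azaC, to 0.355 times its control level (standard error 0.20, 95% interval -1.97 to -1.02, adjusted p = 0.0264 from limma). After GA its log2 fold change was -1.17, or 0.443 times the control level (standard error 0.20, 95% interval -1.65 to -0.70). This change did not pass limma with the pair block (adjusted p = 0.0729) but did without it (adjusted p = 0.041). Its unadjusted p from limma was no higher with the pair block (0.000503) than without it (0.000614). Among all probe sets, 69 were called after GA with the pair block and 425 without it. CA5B passed after GA in 7 of 14 alternatives, among them a robust eBayes with a trend (adjusted p = 0.00504). The miss thus depends on the processing, and its cause was not tested. The arrays do not show a pairing by replicate number. The pairs gave -1.12 and -1.23 for GA and -1.50 and -1.49 for 5azaC, so that all 4 treated arrays were below the controls of the same number. The difference between the effects of the treatments was 0.32 (95% interval -0.35 to 0.99, adjusted p = 0.844), so the pass after 5azaC and the miss after GA are not shown to differ. On the 4 arrays of the 5azaC experiment alone, the adjusted p of CA5B after 5azaC was 0.0864. With 1 5azaC pair left out, its log2 fold change was -1.49 and -1.50. The transcribed pseudogene CA5BP1 lies near CA5B on chromosome X, is not named in the probe table and may share its signal.

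The start of CA5B is shown because CA5B is the member that fell and because its start is rich in 1 repeated box. The window from RefSeq runs from 250 bases before the start to 50 after it, on the plus strand of GRCh38.p14 at chrX:15738020-15738319, and capitals mark the box GGGCGTG, of the kind that KLF and SP factors bind.
CA5B: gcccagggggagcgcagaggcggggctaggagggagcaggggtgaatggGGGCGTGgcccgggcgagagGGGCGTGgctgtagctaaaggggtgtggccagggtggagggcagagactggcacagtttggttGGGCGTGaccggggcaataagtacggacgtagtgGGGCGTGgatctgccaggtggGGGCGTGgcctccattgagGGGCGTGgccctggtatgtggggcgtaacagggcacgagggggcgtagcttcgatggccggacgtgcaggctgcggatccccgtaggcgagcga
The box, chosen after the window was read, occurs 6 times, each on the strand shown, when both strands are searched. Of 35116 RefSeq windows of this length, 8.68% hold it at all and 0.0285% hold it as many times. Because the box was picked from this window, these shares are a description and test nothing. The window has 23 CpG dinucleotides, the sites that DNA methyltransferases modify, and a GC content of 69.0%, and 35.8% of all windows have as many CpG. The hypoxia response element core ACGTG occurs once, as it does at least once in 21.4% of windows, and the ATF4 composite element TGATGNAAN does not occur, as against 3.61% of windows that hold it. These matches describe the letters and not sites in use. A window was found for 3 of the 7 members, and those of the others are not shown.

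CA13, a cytosolic isozyme, had log2 signals of 9.79 and 9.43 after GA and 9.34 and 9.79 in the controls for GA, which overlap. After 5azaC it was at 9.76 and 9.53, below both controls, which were at 10.08 each. Its log2 fold change was 0.04 after GA (95% interval -0.55 to 0.63, adjusted p = 0.96 from limma) and -0.43 after 5azaC (95% interval -1.02 to 0.16, adjusted p = 0.39). The intervals leave out a 2-fold rise after either treatment but not a 2-fold fall after 5azaC. Within the GA experiment the pairs went opposite ways, at 0.45 and -0.37, and within the 5azaC experiment both were lower, at -0.32 and -0.55. The difference between the treatments was 0.47 (95% interval -0.36 to 1.31, adjusted p = 0.819).

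None of the 6 members passed the test of a difference between the effects of GA and 5azaC, and none had an unadjusted p under 0.05 there. Among all probe sets 0% were called in this comparison, with 1430 at an unadjusted p under 0.05.

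CA12, the surface isozyme known as an estrogen and hypoxia target in carcinomas, was below background in every group. Its log2 signal was 5.18 and 5.37 after GA and 5.44 and 5.18 in the controls. It was 5.01 and 5.22 after 5azaC and 4.74 and 4.79 in the controls. All 8 values lie under the lowest background level, so no change is read. The RefSeq window of CA12 (GRCh38.p14, chr15:63381797-63382096, minus strand) holds 22 CpG at a GC content of 66.7%, and 37.7% of all windows hold as many, so its start is about as rich in CpG as that of CA5B. It has no match to the box GGGCGTG, the hypoxia core or the ATF4 element on either strand.

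The related proteins were likewise below background. CA8, which binds the inositol trisphosphate receptor ITPR1 and is best known from the Purkinje cells of the cerebellum, was at 3.03 and 3.21 after GA, 2.84 and 3.01 in its controls, 3.13 and 2.94 after 5azaC and 2.84 and 3.02 in its controls. CA11, a secreted protein of the brain, was at 5.30 and 5.35 after GA, 5.76 and 5.23 in its controls, 4.64 and 4.37 after 5azaC and 4.92 and 5.31 in its controls. The 5azaC arrays of CA11 lay below their controls, but all its values are under background and no change is read. Of 5 measured partner genes (inositol trisphosphate receptors for CA8, neurexins for CA10 and CA11), ITPR2 and ITPR3 were above background on all arrays and none passed the test after either treatment, with 1 at an unadjusted p under 0.05 after GA and none after 5azaC.

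The other 8 measured family genes were CA1, CA3, CA4, CA5A, CA6, CA7, CA10 and CA14. Their log2 signals ran from 2.27 to 4.60 and none was above background on any array. CA1 and CA3 are cytosolic isozymes of red cells and of muscle, CA5A is the mitochondrial isozyme of liver, CA6 is secreted in saliva, and CA4 and CA14 sit at the cell surface. None of the 8 was called by limma after GA or after 5azaC, and none had an unadjusted p under 0.05. Neither treatment thus brought a measured family gene from below to above background.

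**Figure D3:**
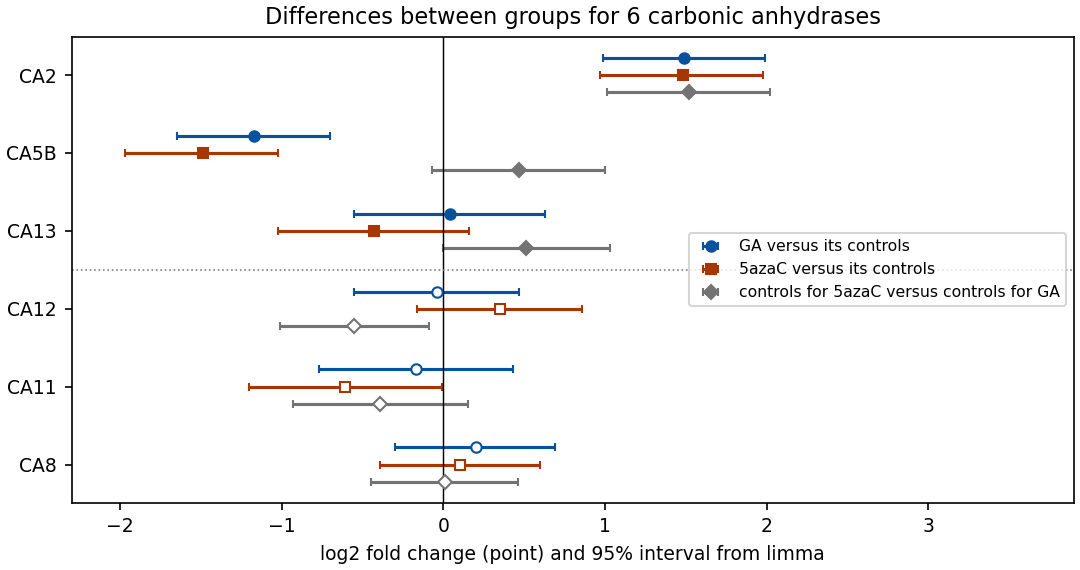
Log2 fold change and 95% interval from limma for the 6 members after GA and after 5azaC, each against its own controls in the fit with pairs, and between the untreated groups in the fit of the 4 groups. Filled points are genes above background on all arrays and open points are genes below it on all arrays. For CA2 the untreated groups differ by 1.52, about as much as the effect of either treatment on it.

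CA2 also differed between the untreated groups. It was at 9.43 in the controls for 5azaC and at 7.91 in the controls for GA, a difference of 1.52 on the log2 scale, or 2.86-fold (standard error 0.23, 95% interval 1.01 to 2.02, adjusted p = 0.00371 from limma), where 19.3% of all probe sets were called. All probe sets together differed by a median of 0.178 between these groups, and after centring on the medians the difference in CA2 was 1.28 (adjusted p = 0.00889). The order of CA2 from low to high was the controls for GA, GA, the controls for 5azaC and 5azaC, and the 2 middle groups, at 9.27 and 9.54 and at 9.30 and 9.55, overlapped. Because the groups of the 2 experiments were untreated alike, the state of the cells and the handling of the experiments cannot be told apart. With all 4 untreated arrays as controls, the value of CA2 after GA was 0.74 on the log2 scale (adjusted p = 0.49), and after 5azaC CA2 rose by 2.23 (adjusted p = 0.0245).

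For CA5B the untreated groups differed by 0.47 (95% interval -0.07 to 1.0, adjusted p = 0.198) and for CA13 by 0.51 (95% interval 0.00 to 1.03, adjusted p = 0.145). After centring on the medians the differences were 0.23 for CA5B and 0.27 for CA13. With quantile normalization they were 0.06 and 0.11, as against 1.15 for CA2. The order of CA5B was GA, 5azaC, the controls for GA and the controls for 5azaC, in which the treated groups overlapped, at 8.44 and 8.45 against 8.83 and 8.35. Both untreated groups of CA5B lay above both treated groups. The untreated groups of CA2 did not lie on 1 side of the treated ones. The share of all probe sets ordered as CA5B was not computed. With all untreated arrays as controls, CA5B passed the test after GA, at -1.41 (adjusted p = 0.0399), and after 5azaC, at -1.26 (adjusted p = 0.0297). These values too include part of the difference between the untreated groups.

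CA13, CA1, CA3 and CA2 lie side by side on chromosome 8, so the signals of the neighbors were compared. CA3, CA1, PSKH2 and ATP6V0D2, the nearest measured protein-coding genes on either side of CA2, were below background on all 8 arrays. CA2 was thus the only one of these 5 genes with a signal above background. Beside CA13, RBIS and E2F5 were above background. RBIS was at 1.08 after GA (adjusted p = 0.128) and 0.32 after 5azaC (adjusted p = 0.559) on the log2 fold change scale, and E2F5 was at 0.28 (adjusted p = 0.583) and -0.40 (adjusted p = 0.342). Beside CA5B on chromosome X, CLTRN and ZRSR2 were below background on all 8 arrays, and PIR and AP1S2 were above it. The log2 fold changes of PIR were 0.85 after GA (adjusted p = 0.209 from limma) and 0.27 after 5azaC (adjusted p = 0.639). Those of AP1S2 were 0.19 (adjusted p = 0.725) and -0.02 (adjusted p = 0.977).

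The 3 genes most like CA2 over the 8 arrays, after the mean of each experiment was taken off, were SAMHD1, LMO7 and MRPL39. They were the highest of 7045 candidates, with Pearson's r of 0.998, 0.996 and 0.995, which is a description over 8 arrays. A gene chosen in this way moves as its member does, so its fold changes are not separate evidence. SAMHD1, an enzyme that breaks down deoxynucleotides, rose after 5azaC, by 1.22 (adjusted p = 0.0457), and its value after GA was 1.23 (adjusted p = 0.0729). MRPL39 is a protein of the mitochondrial ribosome and LMO7 a protein of cell junctions. By the same measure, run for CA5B after its values were seen, BLTP3A, PTGES2 and TMEM230 were most like it, with r of 0.996, 0.993 and 0.993. BLTP3A, a lipid transfer protein, fell by 1.40 after 5azaC (adjusted p = 0.032), and PTGES2, a prostaglandin E synthase, fell by 1.16 (adjusted p = 0.0444).

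Carbonic anhydrases work with transporters that carry bicarbonate, protons and lactate across membranes, and none of those measured passed the test. Of 12 measured bicarbonate transporters, SLC4A2, SLC4A7 and SLC4A8 were above background on all arrays. None of the 12 passed after GA or after 5azaC in the fit with pairs (2 at an unadjusted p under 0.05 after each), and 1 passed after each without the pair block. SLC4A7, a sodium bicarbonate cotransporter that brings bicarbonate into the cell, differed from its controls by 1.0 on the log2 scale for GA (adjusted p = 0.0966) and by 0.91 for 5azaC (adjusted p = 0.0818). The median of the list was 0.07 after GA and 0.08 after 5azaC, beside 0.025 and 0.051 over all probe sets. Of 10 measured proton and lactate transporters and their partners, basigin (BSG) and embigin (EMB), which escort lactate transporters to the surface, were above background on all arrays, and none of the 10 passed after GA or 5azaC (1 at an unadjusted p under 0.05 after each). Their medians were 0.01 and 0.14.

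Enzymes that use bicarbonate did not pass the test either. Of 9, the carboxylase subunits PCCB, MCCC1 and MCCC2, the fatty acid synthesis enzyme ACACA and the pyrimidine synthesis enzyme CAD were above background on all arrays. None of the 9 passed after GA (1 at an unadjusted p under 0.05) or after 5azaC (2 at an unadjusted p under 0.05), and the medians were 0.07 and 0.02. PC and CPS1, mitochondrial users of bicarbonate that CA5 isozymes are known to serve in liver, were below background on all arrays.

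Carbonic anhydrases carry zinc, and 24 genes of zinc transport and storage were measured, 18 of them above background on all arrays. None passed after GA (9 at an unadjusted p under 0.05) or after 5azaC (5 at an unadjusted p under 0.05), and 1 passed after each without the pair block. The medians were 0.20 and -0.14. The importer SLC39A8 gave 1.34 after GA (adjusted p = 0.0652) and 0.84 after 5azaC (adjusted p = 0.0933). The importer SLC39A14 gave -1.11 after GA (adjusted p = 0.115) and -1.43 after 5azaC (adjusted p = 0.0504). These genes were picked out after their values were seen. Between the untreated groups 6 of the 24 were higher in the controls for 5azaC, where 15.2% of all probe sets were called higher, with a list median of 0.41 against 0.178 over all probe sets. Among the 6 were the metallothionein MT1G, higher by 1.18 (adjusted p = 0.00952), and SLC39A8, by 0.90 (adjusted p = 0.0179).

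CA9 and CA12 are known targets of the hypoxia-inducible factors, and 19 genes of that pathway were measured, 14 of them above background on all arrays. Only VEGFA, the angiogenic growth factor, passed, and its fall was larger than the spread in both experiments, with a log2 fold change of -1.82 for GA (adjusted p = 0.023) and -1.98 for 5azaC (adjusted p = 0.0141). The median of the list was 0.06 after GA and 0.08 after 5azaC. Between the untreated groups 5 of the 19 were higher in the controls for 5azaC, beside the 15.2% of all probe sets called higher there. Among the 5 were the mitophagy receptors BNIP3, higher by 1.5 (adjusted p = 0.00254), and BNIP3L, by 1.29 (adjusted p = 0.00389).

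**Figure D4:**
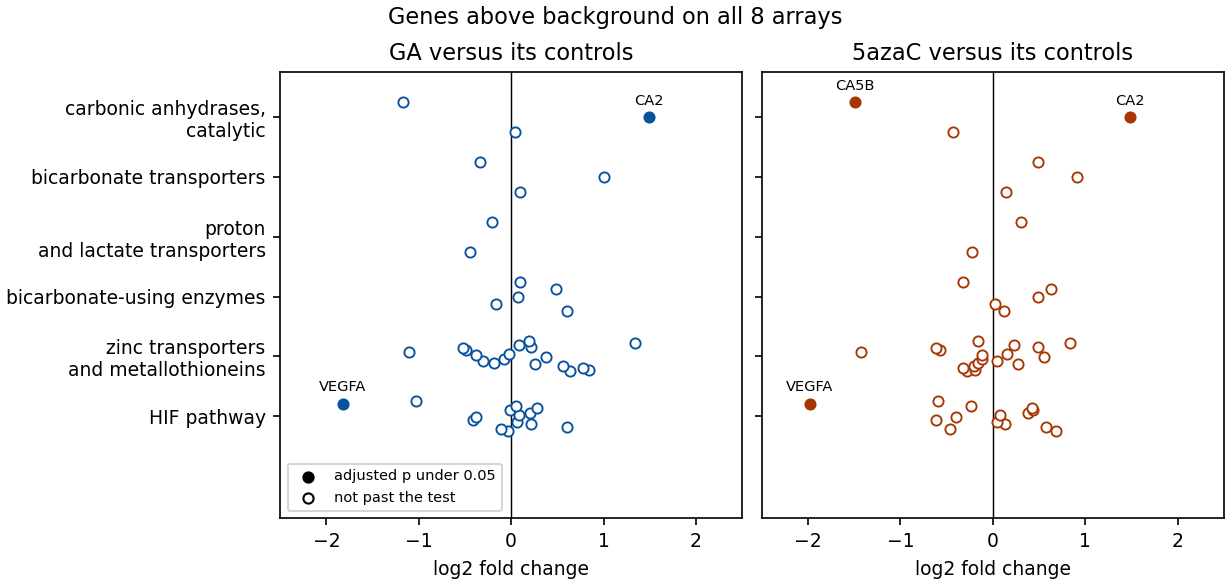
Log2 fold change after GA (left) and after 5azaC (right) of the genes of 6 lists that were above background on all 8 arrays, 1 point per gene. Filled points passed limma at an adjusted p under 0.05. CA2 and VEGFA passed after both treatments and CA5B after 5azaC.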

How the data were processed

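Arrays (Clariom S) of 8 H1299 samples, 2 per group, were grouped by the sample labels. The authors processed the scans in Affymetrix Expression Console 1.4 by Signal Space Transformation and RMA, and the values they deposited are log2 signals. Whether the arrays of the 2 experiments were normalized together is not stated, and their medians differ as given above. Their genome build: not given in the sources used here. All 21448 probe sets that remained of 24351 entries after removal of 2903 controls entered the tests as deposited. The probe annotation gives 17709 of them 1 symbol and leaves 3739 unnamed here.

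Tests used lmFit and eBayes of limma 3.58.1 under R 4.3.3. All 8 arrays entered 1 fit with a term per pair (2 residual degrees of freedom). The term follows the paired test that the study's methods name. The counts that the study reports come out of an unpaired test instead. The labels do not say that a replicate number marks a shared culture or day, so fits and tests without the pairs were run as alternatives. For the untreated groups the fit had a term per group and no pairs. P-values were adjusted by Benjamini-Hochberg at 0.05. An exact permutation test of 2 arrays against 2 cannot go below p = 0.333. The number of arrays limits the precision. Nothing says whether replicates were separate cultures beyond the label of biological replicates. Simulated data of 21448 probe sets had 100 changed by 2-fold and 100 by 4-fold, alike in both treatments. Their noise was drawn from the spread that the fit estimated. The fit found 82% of 4-fold changes for either treatment, and of 2-fold changes 4% for GA and 5% for 5azaC. It made 7 false calls for GA and 6 for 5azaC. Recovery depends on how many probe sets change, so these shares need not hold for the real data.

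The members and gene lists were chosen with earlier results of these data known. Genes named are the members, the rest of the family, called genes of each list (at most 4 per comparison), and the 3 genes most like CA2. CA12 lay below background and CA9 was not analysed, so no likeness was computed for them. Further names were chosen after their values were seen: genes above background in the lists, the chromosomal neighbors, the genes most like CA5B, and SLC4A7, SLC39A8 and SLC39A14. Promoter windows are from RefSeq (GRCh38.p14).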

Additional observations from a re-analysis of the deposited data

How the results depend on the processing

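CA2 kept its positive sign and CA5B its negative sign after GA and after 5azaC under all 14 alternatives, but their calls did not all hold, and the cause was not tested. The 14 are not all distinct. Leaving out a pair of the other experiment gave the same result as the arrays of the comparison alone, which is therefore counted more than once. Values with all untreated arrays as controls, such as the 0.74 and 2.23 of CA2 below, include part of the difference between the experiments. The log2 fold change of CA2 ran from 0.74 to 1.57 after GA (adjusted p 0.00141 to 0.665) and from 1.28 to 2.23 after 5azaC (0.00113 to 0.558), and it passed in 8 of 14 for each. CA5B ran from -1.41 to -1.12 after GA (adjusted p 0.00504 to 0.665), passing in 7, and from -1.51 to -1.26 after 5azaC (0.000888 to 0.493), passing in 8. For CA13 after GA the value turned to -0.22 with all untreated arrays as controls and ran from -0.37 to 0.45 with 1 pair left out. The difference between the treatments in CA2 turned to -0.01 with quantile normalization and ran from -0.18 to 0.21 with 1 pair left out.

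The numbers of replicates do not pair the arrays in the data: the deviations of same-numbered arrays from their group means correlated at -0.023 for GA and 0.0289 for 5azaC. With no replicate block, 2 members were called after GA and 2 after 5azaC, and among all probe sets 425 and 889. With the block by replicate number these were 1 and 2 members, and 199 and 636 probe sets. After GA, in place of 1 member and 69 probe sets, the arrays of that comparison alone gave 2 and 620, leaving out the dimmest 33% of probe sets 2 and 388, a robust eBayes with a trend 2 and 1210, and median centring 0 members. A paired t-test gave 0 members and 9 probe sets, an unpaired test 0 and 0, and all untreated arrays as controls 151 probe sets. After 5azaC, in place of 2 members and 323 probe sets, the arrays of that comparison alone gave 0 and 22. Leaving out the dimmest 33% gave 914 probe sets there, and a robust eBayes with a trend gave 1838. A paired t-test gave 0 members and 3 probe sets, an unpaired test 0 and 0, and all untreated arrays as controls 780 probe sets. With 1 pair left out, members called ran from 0 to 2 after each treatment, and probe sets from 0 to 620 after GA and from 22 to 257 after 5azaC, where the spread rests on fewer arrays. By the threshold of the methods, an unadjusted p and a 2-fold change, the paired test that they name called 160 probe sets after GA and 277 after 5azaC, CA2 after GA but not after 5azaC, and CA5B after both. An unpaired test at that threshold called 383 and 546, with CA2 and CA5B after both treatments. The counts that the study reports are those of the unpaired test and not of the paired test that its methods name. Between the untreated groups CA2 was called in all alternatives. With quantile normalization 2 and with median centring 2 members passed there, the second being CA12, which is below background. With the 99th percentile as background, 0 members were above it on all arrays, against 3. Each gene has 1 probe set, so no other could be tried. The dim signal of CA8, CA11 and CA12 leaves their changes unread.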
